A study of Mus musculus with 12 samples.

Results

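Livers of HESKOL mice were compared with livers of wild-type mice over both treatment states of the study, as 6 HESKOL arrays against 6 wild-type arrays with treatment held as a term. All 12 arrays of the series entered this comparison, 1 mouse per array. Wild-type and HESKOL mice were either left untreated or injected into the peritoneum with dexamethasone, a synthetic glucocorticoid, at 1 mg/kg, and livers were taken 6 hours later, which gives 4 groups of 3 mice. Per the labels, all 12 mice were C57BL/6 males aged 8 to 10 weeks, and all had their adrenal glands removed, so untreated livers of both genotypes had no adrenal glucocorticoid. The labels do not spell out HESKOL, name no allele, promoter or Cre, and mention no vehicle injection of untreated mice; the series title names Hes1 and glucocorticoid signaling in the liver.

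Hes1 is a basic helix-loop-helix repressor that acts downstream of Notch and silences genes through N-box and E-box sequences. The liver is a sexually dimorphic organ: the pulsed growth hormone of males and the steadier growth hormone of females act through STAT5 to set male-pattern and female-pattern genes. The transcription factor Cux2 is expressed in female mouse liver, where it lowers male-pattern genes, and the repressor Bcl6 is a male-pattern gene.

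Values are given on a log2 scale on which 0 is an array's own 75th percentile, and differences are HESKOL minus wild type with their standard error (SE). Array brightness (75th percentile) ran from 897 to 1614 units, and 62.2% to 72.3% of spots per array were well above background. Of 27824 genes or unnamed probes, 18708 were tested, namely those that cleared the background on each of the 3 arrays in 1 or more of the 4 groups. The median difference over all tested was 0.05. Of the 3 slides, slide 1 (untreated) and slide 3 (dexamethasone) held both genotypes in the same state; slide 2 held 2 untreated HESKOL and 2 treated wild-type livers. Wild-type dexamethasone replicate 1 stood apart: its root mean square distance from its group was 0.994 log2 units, where the other 11 arrays had 0.463 to 0.798, and it lay among untreated livers on the first principal component (-35.9) and carried immediate early genes at a median of 4.51 against 0.89 and 0.96 in the other treated wild-type livers. All 19 hepatocyte markers were above background, and their summed level ranged from 3620 to 6260 in HESKOL and 3730 to 5840 in wild-type livers, in multiples of the 75th percentile.

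Hes1 was read by 1 probe of 60 bases, placed by the array files on mm7 chromosome 16 from 29738743 to 29739038, a span of 296 positions. It is shown because it is the measure of the gene named in the title. The altered part of the gene is not given in the labels, so whether the probe lies in it is unknown.
Hes1 probe: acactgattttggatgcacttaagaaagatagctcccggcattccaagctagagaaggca

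Hes1 signals were -1.49, -1.22 and -1.90 in untreated wild-type livers and -2.46, -2.40 and -3.09 in untreated HESKOL livers. After dexamethasone they were -1.17, -2.57 and -2.92 in wild-type and -3.08, -3.02 and -3.85 in HESKOL livers. The genotypes did not overlap within either state, although treated wild-type replicates 2 and 3 lay within the range of untreated HESKOL livers. Across both states Hes1 was -1.11 (SE 0.29) in HESKOL relative to wild type, which is 46.4% of the wild-type signal, with an exact two-sided permutation p of 0.005 when genotypes were exchanged within states, the smallest that the 400 arrangements allow. The limma fit over all genes gave an adjusted p of 0.354, so Hes1 did not pass there. The difference was -0.66 with slide as a block, where the unadjusted limma p was 0.127 against 0.00251 without the block, and -0.88 without wild-type dexamethasone replicate 1.

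At an adjusted p under 0.05, 3 genes passed (0.016% of those tested): Cux2 and Cables1 rose (2 genes, 0.0107%) and Cdh15 fell (1 gene, 0.00535%) in HESKOL liver. Cux2, the female-pattern transcription factor, showed the largest difference of the 3. Cux2 signals were -7.72, -7.00 and -7.70 in untreated and -6.17, -8.61 and -7.14 in treated wild-type livers, with the probe well above background on 2 of these 6 arrays. In HESKOL livers they were -3.39, -3.70 and -4.34 without and 0.40, -0.06 and 1.09 with dexamethasone, all 6 above background. All HESKOL livers therefore lay above all wild-type livers, and the treated HESKOL livers above the untreated ones. The difference was 5.73 (SE 0.70, 52.9-fold, adjusted p = 0.0246) on mm7 chromosome 5 from 121094700 to 121094759, and 5.83 on a second probe. Because the wild-type signal lies near background, the size depends on how background is removed: it was 2.35 after normexp correction (adjusted p = 0.307).

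Cables1 encodes a protein that links cyclin-dependent kinases to their regulators; its probe lies on chromosome 18. Its signals were -0.38, 0.02 and -0.20 in untreated and -0.08, -0.63 and -0.11 in treated wild-type livers, against 1.49, 1.58 and 0.42 in untreated and 1.93, 2.08 and 1.92 in treated HESKOL livers. The genotypes did not overlap, and untreated HESKOL replicate 3 lay nearest to the wild-type range. Cables1 rose by 1.80 (SE 0.24, 3.48-fold, adjusted p = 0.0476). Cdh15, which encodes the cell adhesion protein M-cadherin, known from muscle, was at -3.48, -3.67 and -3.38 in untreated and -4.22, -3.64 and -4.01 in treated wild-type livers. It was at -4.64, -5.19 and -5.14 in untreated and -5.36, -5.25 and -5.54 in treated HESKOL livers. Again no HESKOL liver reached the wild-type range. Cdh15 fell by 1.45 (SE 0.15, 2.74-fold, adjusted p = 0.0116; mm7 chromosome 8 from 121508826 to 121508885), and the differences in the untreated (-1.48) and treated (-1.42) states were alike in size.

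**Figure D1:**
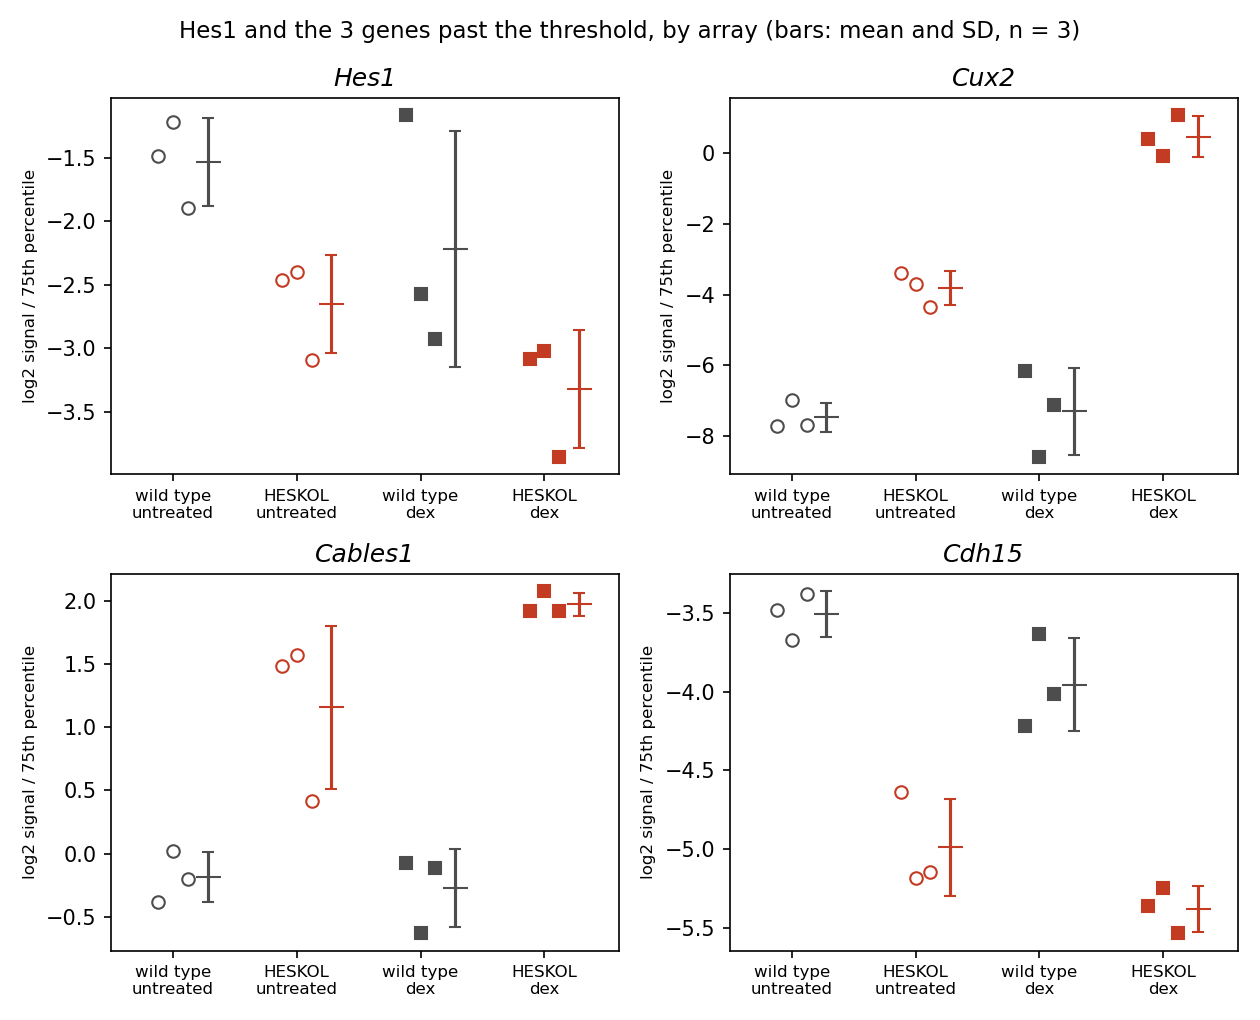
Log2 signal over the 75th percentile of each array for Hes1, Cux2, Cables1 and Cdh15 in the 4 groups; each point is 1 array and bars give the mean and SD of 3. HESKOL lies above wild type in every array for Cux2 and Cables1 and below it for Cdh15, whereas Hes1 separates the genotypes only within a state.

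Leaving out 1 array at a time, Cdh15 passed in 8 of 12 fits, Cux2 in 4 and Cables1 in 1, with adjusted p up to 0.0673, 0.112 and 0.213. Cux2 ranged from 5.21 to 6.07, Cables1 from 1.67 to 2.02 and Cdh15 from -1.53 to -1.38. With slide as a block the differences were 5.85, 1.88 and -1.25 (adjusted p = 0.373 each), and 0 genes passed (1060, or 5.67%, at an unadjusted p under 0.05). Without wild-type dexamethasone replicate 1, Cdh15 passed (-1.51, adjusted p = 0.0119), whereas Cux2 (5.75, adjusted p = 0.0553) and Cables1 (1.79, adjusted p = 0.0709) did not.

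The promoters of Cux2 and Cdh15 are shown as the called genes with an entry in the RefSeq table (GRCm38.p6), each as the 250 bases before an annotated start. Capitals mark matches on either strand to 2 motifs bound by Hes proteins. The N-box was searched as CACNAG, which reads as CTNGTG when turned to the other strand. The other motif, which covers the class C box and the E-box CACGTG, was searched as CACGNG and reads as CNCGTG when turned. The letters CACGAG match both motifs. The first window, of the upstream of 2 Cux2 starts, is chr5:122049852-122050101 on the minus strand, and the second is chr8:122848124-122848373 on the plus strand.
Cux2: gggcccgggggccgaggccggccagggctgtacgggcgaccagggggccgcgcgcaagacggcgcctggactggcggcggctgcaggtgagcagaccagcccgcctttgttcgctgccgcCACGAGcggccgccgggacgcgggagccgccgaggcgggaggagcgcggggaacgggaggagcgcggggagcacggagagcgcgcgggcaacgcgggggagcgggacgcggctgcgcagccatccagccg
Cdh15: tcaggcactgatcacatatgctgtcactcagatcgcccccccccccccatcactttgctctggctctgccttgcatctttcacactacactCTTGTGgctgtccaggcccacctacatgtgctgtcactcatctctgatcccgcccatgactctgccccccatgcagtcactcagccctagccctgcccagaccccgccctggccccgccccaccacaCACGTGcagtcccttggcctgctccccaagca

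Counting from the start site, the Cux2 match begins at -130 and serves both motifs; the window of the other Cux2 start had no match. Cdh15 has an N-box from -159 and CACGTG from -32. Such matches are common: 36.7% of all 32851 windows hold an N-box and 23.5% hold CACGNG. Among tested genes with a window, counting any of a gene's starts, an N-box was present for 39.9% of all 12020, for 38.8% of the 552 with a positive and 39.3% of the 425 with a negative difference at an unadjusted p under 0.05. For CACGNG these shares were 35.9%, 30.3% and 30.6%.

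At an unadjusted p under 0.05 stood 1605 genes (8.58%), of which 954 (5.1% of those tested) had positive and 651 (3.48%) negative differences. The 6 HESKOL arrays did not overlap the 6 wild-type arrays in 54 genes (0.289%), and in 175 (0.935%) the genotypes did not overlap, in 1 direction, within both states. A fit of the 4 group means, which lets the genotype effect differ between states, called 45 genes for the mean genotype effect (0.241%; 26 higher, 19 lower), all 3 genes above among them. Within states that fit called 0 genes in untreated livers (296 at an unadjusted p under 0.05, or 1.58%) and 213 after dexamethasone (1.14%; 2941 at an unadjusted p under 0.05, or 15.7%). Positive differences made up 57% of all tested genes over both states, 58.3% in untreated and 53.4% in treated livers, and signs were shared by both states in 54.6% of genes. Of the 213 genes called in treated livers, 146 (68.5%) had the same sign in untreated livers, and of the 296 untreated genes 218 (73.6%) had it in treated livers; the states share no arrays.

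The next genes by rank with positive differences did not pass at 0.05. Lepr, the leptin receptor, was at -2.98, -3.74 and -3.56 in untreated and -2.84, -1.99 and -1.17 in treated wild-type livers, and at -2.23, -0.73 and -0.78 in untreated and 2.55, 2.68 and 1.26 in treated HESKOL livers. The treated HESKOL livers stood above all others; the untreated HESKOL livers stood above the untreated wild-type livers, but their replicate 1 lay within the range of treated wild type. The difference was 3.17 (SE 0.46, adjusted p = 0.059), and 3.37 on a second probe.

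Nipal1, a magnesium transporter gene, was at -4.71, -2.06 and -5.28 in untreated and -1.41, -3.85 and -2.36 in treated wild-type livers. In HESKOL livers it was at -0.44, -0.09 and -1.58 without and 1.73, 1.87 and 1.38 with dexamethasone. The genotypes were apart within each state although wild-type livers varied widely (difference 3.76, SE 0.56, adjusted p = 0.059). Esr1, the estrogen receptor alpha, was at 0.36, 0.07 and 0.84 in untreated and 0.45, 0.70 and 0.82 in treated wild-type livers, and at 1.31, 1.35 and 1.52 in untreated and 2.09, 2.54 and 2.31 in treated HESKOL livers. It did not overlap between genotypes (1.31, SE 0.19, adjusted p = 0.059; 0.74 on a second probe).

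The other genes that complete the 12 with positive differences had adjusted p from 0.132 to 0.178. They were Pdk4, a kinase that holds back pyruvate oxidation (2.002), Akr1b7, an aldose reductase (2.18), Slco1a4, an organic anion transporter of the sinusoidal membrane (1.89), Cda, cytidine deaminase (1.58), Hhipl2 (1.54), Stac (1.29) and Lratd2 (0.96). All 12 had larger positive differences with dexamethasone than without it. Among all tested genes, 15.7% had an unadjusted p under 0.05 for genotype in treated and 1.58% in untreated livers. Whether the larger treated difference is particular to the ranked genes was not tested.

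Among negative differences after Cdh15, Cspg5, a chondroitin sulfate proteoglycan gene, stood at -1.05 (SE 0.16, adjusted p = 0.0739), with nearly the same difference untreated (-1.03) and treated (-1.07). Serpina12, the adipokine vaspin, was at -2.87, -2.58 and -2.77 in untreated and -2.76, -2.81 and -2.83 in treated wild-type livers. In HESKOL livers it was at -3.84, -4.50 and -4.59 without and -5.69, -7.76 and -5.87 with dexamethasone, the last group with 2 of 3 arrays above background. No HESKOL liver overlapped a wild-type liver (-2.61, SE 0.43, adjusted p = 0.119). Serpina9, of the same family, differed by -2.40 (SE 0.43, adjusted p = 0.159).

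Hsd3b5, a male-pattern steroid dehydrogenase, was at 3.44, 4.53 and 4.49 in untreated and 3.63, 2.65 and 1.45 in treated wild-type livers. It was at 2.43, -1.58 and 2.60 in untreated and -2.23, -3.71 and -2.51 in treated HESKOL livers. The genotypes were apart within each state, and untreated HESKOL replicate 2 stood well below the other livers of its group (-4.20, SE 0.75, adjusted p = 0.159). Hsd3b4 was -3.85 (SE 0.73); the copies of this family are close in sequence, and 1 probe may read several of them.

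The remaining genes of the 12 with negative differences had adjusted p from 0.167 to 0.187: Tuft1 (-0.997), the endocytic receptor gene Lrp2 (-1.50), Dpy19l3 (-1.09), the small GTPase gene Rap2a (-0.95), Pfkfb3, which makes the activator of phosphofructokinase (-1.46), and the aldehyde oxidase gene Aox3 (-1.10). Further probes above background on all 12 arrays gave only -0.11 for Rap2a, but -1.33 for Lrp2 and -1.76 and -2.34 for Pfkfb3. Lrp2 was -1.75 (adjusted p = 0.018) without wild-type dexamethasone replicate 1. Of the 24 ranked genes, 17 were called in the fit of 4 group means, which uses the same arrays that ranked them. The difference was larger with dexamethasone in 21 of 24, although the test of the difference between states called none of them (smallest adjusted p 0.182, for Cux2). In that test 7 of the 24 had an unadjusted p under 0.05. On simulated arrays it recovered 35 of 100 genes changed by 2 log2 units, so the lack of calls does not show equal differences.

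**Figure D2:**
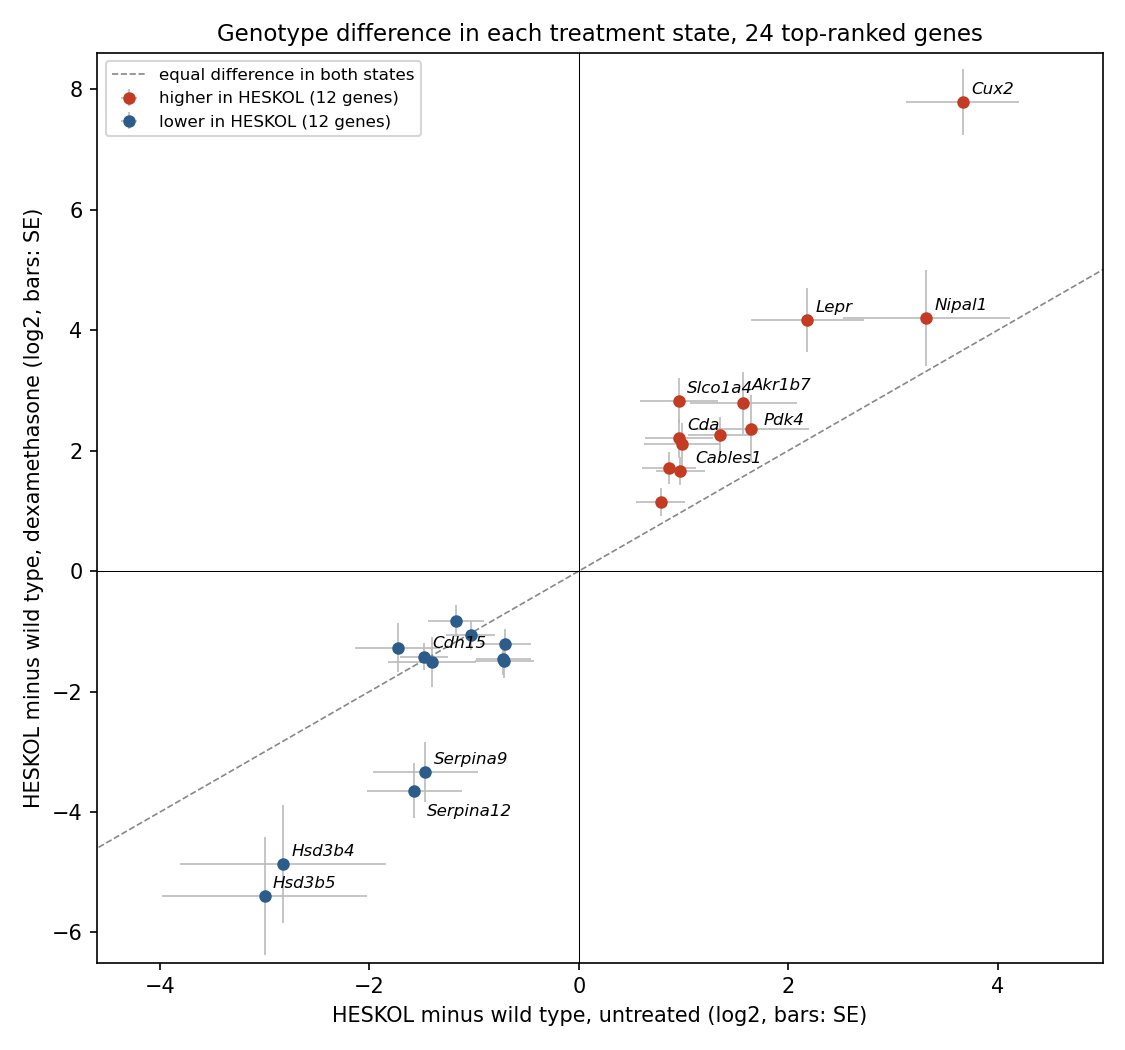
Genotype difference (HESKOL minus wild type, log2, with SE) in untreated livers on the x axis and in dexamethasone-treated livers on the y axis, for the 12 top-ranked genes of each direction; the dashed line marks equal differences. Cux2 lies at 3.66 and 7.79, Cdh15 close to the line at -1.48 and -1.42, and 21 of 24 genes lie farther from 0 in treated livers.

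Female-pattern genes had the highest median of the 41 lists. Of 26 female-pattern genes 23 were tested: 19 had positive differences, with a median of 0.82 against 0.05 for all tested genes, 8 had a positive and 0 a negative difference at an unadjusted p under 0.05, and 1, Cux2, was called. Slc22a26, an organic anion transporter gene, was at -2.12, -3.57 and -3.36 in untreated and -0.81, -4.31 and -5.45 in treated wild-type livers, and at 0.60, 1.66 and -0.65 in untreated and -0.45, 0.21 and -3.03 in treated HESKOL livers. It was apart in untreated livers only (2.99, SE 0.79, adjusted p = 0.354). A1bg was above background on 5 HESKOL arrays and on 0 wild-type arrays, so that it was at least 2.06-fold higher in HESKOL (adjusted p = 0.423), and Acot3, a peroxisomal thioesterase gene, differed by 2.94 (SE 0.95).

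Some members of the female list had larger differences in untreated livers. The difference of Cyp2b9 was 3.21 in untreated and -0.17 in treated livers and that of Cyp2b13 was 2.74 and -0.20. Hao2 was 3.47 and -1.66, with the probe above background on 3 HESKOL arrays and 1 wild-type array. Cyp2a4 (-0.10) and Cyp2c40 (-0.07) lay near 0. Its median was 0.28 in untreated and 1.07 in treated livers, 0.87 with slide as a block and 0.55 without wild-type dexamethasone replicate 1.

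Of 26 growth hormone and male-pattern genes 24 were tested: 20 had negative differences (median -0.33), 8 of them and 0 positive ones at an unadjusted p under 0.05, and 0 were called. After Hsd3b5 came Slco1a1, an organic anion transporter, at 2.35, 3.37 and 3.12 in untreated and 2.34, 2.72 and 3.24 in treated wild-type livers, and at 1.94, 0.10 and 2.61 in untreated and 0.22, -0.14 and 1.52 in treated HESKOL livers. It overlapped in untreated and not in treated livers (-1.81, SE 0.43, adjusted p = 0.293). Bcl6 was at 5.04, 5.53 and 3.77 in treated wild-type and 0.91, 1.15 and 0.45 in treated HESKOL livers, with a difference of -0.93 in untreated and -3.94 in treated livers. Selenbp2 was -0.89 (SE 0.25), Cyp7b1 -0.94 and Ugt2b1 -1.11.

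Of the male-pattern products, Mup1 was -0.09, Mup3 -0.05 and Cyp2d9 -0.18. Genes of the growth hormone axis itself had both signs: the receptor Ghr was -0.27 (-0.59 in treated livers), Stat5a -0.37 (-1.11 in treated livers), Stat5b 0.24, Igf1 0.17, Igfals -0.14, and the feedback inhibitors Cish 0.37 and Socs2 0.89 (SE 0.49). The median was -0.26 in untreated and -0.54 in treated livers.

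**Figure D3:**
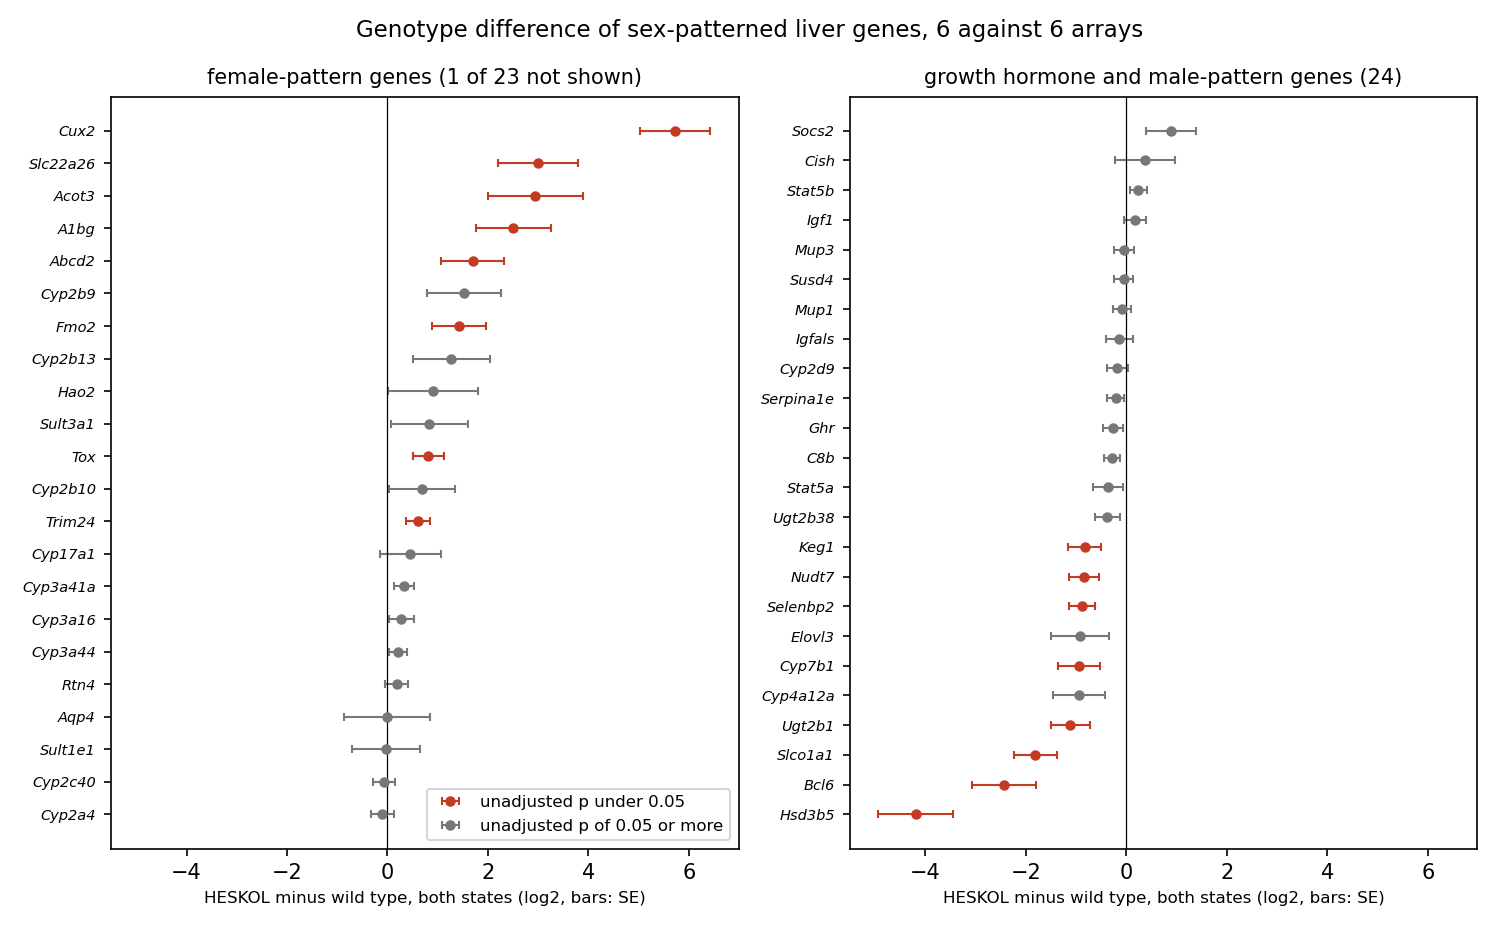
Genotype difference over both states (HESKOL minus wild type, log2, with SE) for the tested female-pattern genes on the left (1 of the 23 is not shown) and the 24 growth hormone and male-pattern genes on the right; red marks an unadjusted p under 0.05. The female-pattern genes reach 5.73 (Cux2) and the male-pattern genes -4.20 (Hsd3b5), and many members of both lists lie near 0.

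Genes of fatty acid oxidation had positive differences in 29 of 30 tested members (median 0.38), with 11 at an unadjusted p under 0.05, all positive, and 0 called. The 11 were 36.7% of the list, against 8.58% of all tested genes, of which 57% had positive differences. Cyp4a14, a fatty acid omega-hydroxylase and PPAR alpha target, was at 2.34, 4.28 and 3.45 in untreated and 4.75, 3.17 and 5.68 in treated wild-type livers. It was at 7.0, 4.93 and 4.18 in untreated and 8.22, 8.66 and 8.75 in treated HESKOL livers, overlapping in the untreated state (3.01, SE 0.60, adjusted p = 0.184). Acot2, a mitochondrial thioesterase, was 1.38 (SE 0.41) and Acadl, the long-chain acyl-CoA dehydrogenase, 0.61 (SE 0.19). The list's median was 0.13 in untreated and 0.72 in treated livers.

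Amino acid catabolism and the urea cycle had positive differences in 33 of 39 members (median 0.31), 5 of them and 0 negative ones at an unadjusted p under 0.05. That is 12.8% of the members, against 8.58% of all tested genes. Mat1a, which makes S-adenosylmethionine, was at 6.97, 7.02 and 7.04 in untreated wild-type and 7.59, 7.33 and 7.49 in untreated HESKOL livers, and at 7.49, 6.89 and 7.76 in treated wild-type and 8.34, 8.56 and 8.61 in treated HESKOL livers. The genotypes were apart in both states (0.79, SE 0.18, adjusted p = 0.279). Cth, which makes cysteine from cystathionine, was likewise apart in both (1.15, SE 0.27), and Hal (0.75) and Agxt (0.73) were apart in treated livers. The list's median was 0.02 in untreated and 0.52 in treated livers.

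Glucose output genes had 17 of 24 positive differences (median 0.15; 3 positive and 1 negative at an unadjusted p under 0.05), among them the coactivator Ppargc1a (1.67, SE 0.44; 0.36 untreated, 2.98 treated), G6pc (1.04) and Got1 (0.98). Of 29 glucocorticoid receptor targets 4 had positive and 2 negative differences at that level, and the median of 0.20 was 0.02 without wild-type dexamethasone replicate 1. De novo lipogenesis held both directions, 4 positive and 4 negative of 25 tested at that level. These counts were 16.7% of glucose output genes, 20.7% of receptor targets and 32% of lipogenesis genes, against 8.58% of all tested genes. Thrsp was -1.60, Elovl5 0.99 and Gpat3 0.82. The medians of lipogenesis (-0.23) and of cholesterol genes (-0.30; Nsdhl -1.14, Cyp51 -0.99) were 0.02 each without wild-type dexamethasone replicate 1.

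Inflammatory lists had negative medians that came from treated livers. Of 33 NF-kB, cytokine and chemokine genes 29 had negative differences (median -0.37; 0.21 untreated and -1.18 treated), with 4 at an unadjusted p under 0.05 and 0 called. The 4 made up 12.1% of the list, against 8.58% of all tested genes. The neutrophil chemokine Cxcl1 was at 0.47, 0.52 and 3.20 in untreated and 6.34, 2.83 and 5.43 in treated wild-type livers. In HESKOL livers it was at 1.09, 0.99 and 1.25 without and -2.0, -1.43 and -3.14 with dexamethasone, below all wild-type livers only in the treated state (-3.67, SE 1.15, adjusted p = 0.423). Bcl3 was -1.29, Nfkbiz -1.62 and Tnfaip3, an inhibitor of the pathway, -1.57. Socs3, an acute phase feedback inhibitor, was -1.75 (-1.09 without wild-type dexamethasone replicate 1) and Il6st, the shared receptor chain of interleukin 6, -0.39.

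Wild-type dexamethasone replicate 1 moved with this result. Without it the NF-kB median was -0.13, that of the 27 tested immediate early genes went from -0.37 to 0.08 and that of 37 interferon response genes from -0.19 to -0.0016, and Nfkbiz was -0.90 and Tnfaip3 -0.99. Neutrophil markers moved with it too: their summed level ranged from 4.44 to 42.2 in treated HESKOL and 23.1 to 177 in treated wild-type livers, but from 13.1 to 287 in untreated HESKOL and 17.9 to 381 in untreated wild-type livers, with no marker of 16 below background on all arrays, none at an unadjusted p under 0.05, and a median difference of -0.37 (0.70 untreated, -1.51 treated, and 0.06 over both states without that array). In whole liver, fewer cells of a type and less RNA per cell cannot be told apart; the part of these markers in the result was not tested.

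**Figure D4:**
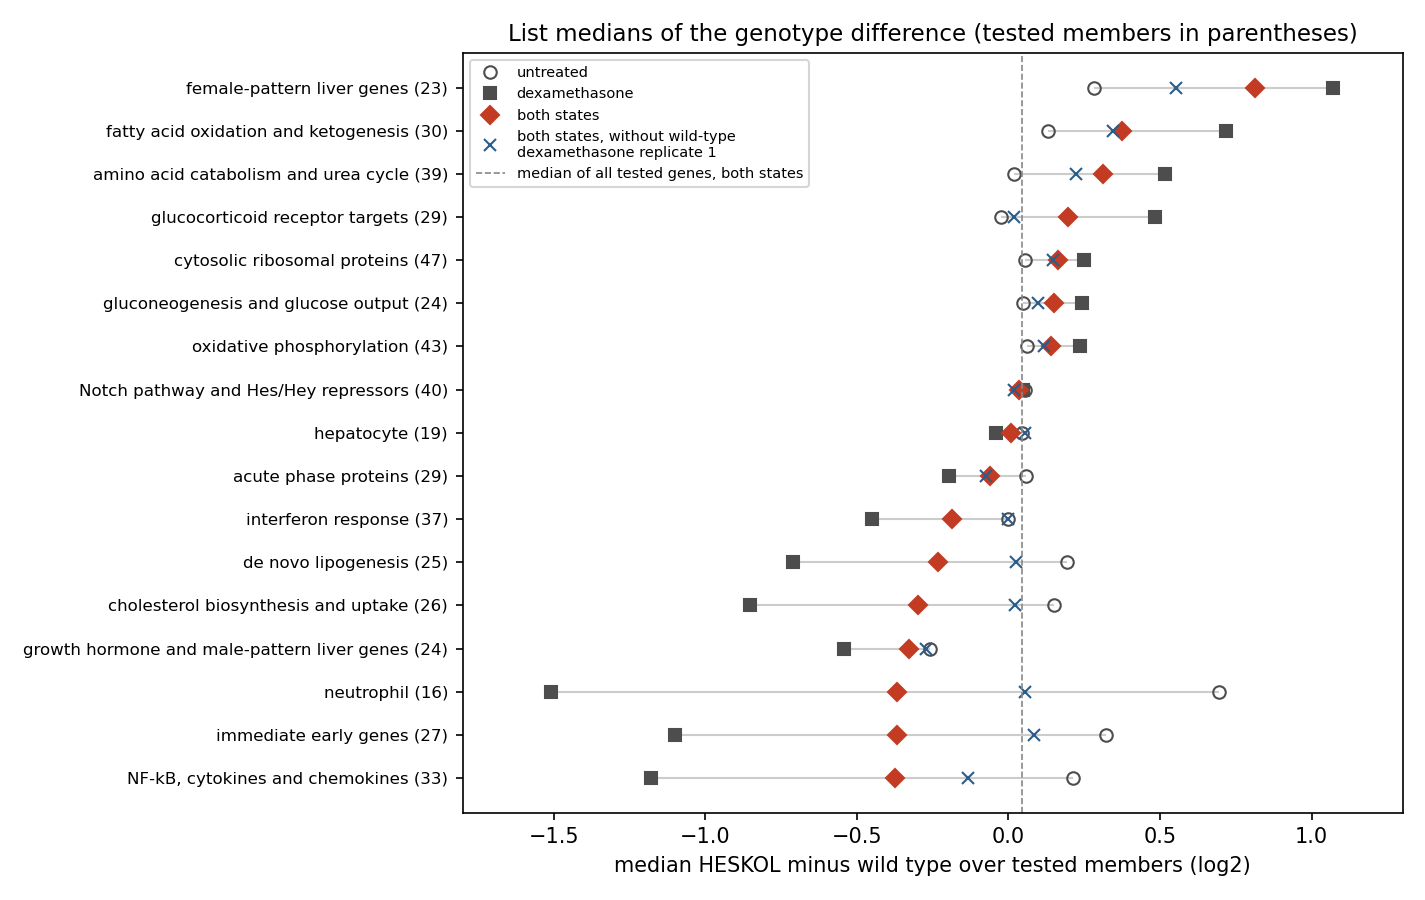
Median genotype difference (HESKOL minus wild type, log2) over the tested members of 17 gene lists, in untreated livers (circles), treated livers (squares), both states (diamonds) and both states without wild-type dexamethasone replicate 1 (crosses). The female-pattern list is highest at 0.82; the NF-kB, immediate early, lipogenesis and cholesterol lists have positive medians in untreated and negative ones in treated livers.

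The remaining lists are given by their members with the smallest p. Among 40 tested genes of the Notch pathway and its Hes and Hey repressors (median 0.03), Hes1 and Hes6 (-0.93, SE 0.32) had negative and the co-activator Maml2 (0.33) and the Notch-modifying Mfng (0.29) positive differences at an unadjusted p under 0.05, that is 4 of 40 (10%) against 8.58% of all tested genes. Cyp1a2, an aryl hydrocarbon receptor target, was -1.41 (SE 0.28, adjusted p = 0.187) and Cyp2c54 -0.69, within 36 P450 genes of which 5 were negative and 1 positive at that level (16.7%, against 8.58% of all tested genes). Ugt2b34 was -0.92, and Abcb11, the bile salt export pump, -0.70.

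The circadian repressors Bhlhe40 (-1.50 over both states) and Bhlhe41 (-2.29) had differences of -2.85 and -3.55 in treated and -0.15 and -1.03 in untreated livers. The Bhlhe41 probe was above background on 4 HESKOL and 5 wild-type arrays, and on only 1 treated HESKOL array. The sizes for Bhlhe41 therefore rest in part on signal near background. The terminal complement genes C6 (-1.09) and C9 (-0.65) and the coagulation factor gene F11 (-1.09) were negative and Pros1, protein S, was positive (0.55). The chaperone regulator Bag3 was -0.54, 1 of 4 heat shock genes of 24 with a negative and 0 with a positive difference at that level. These 4 were 16.7% of the list, against 8.58% of all tested genes. Of 40 cell cycle and proliferation genes 30 had positive and 10 negative differences (median 0.16), with 1 positive (Cdkn1a) and 2 negative (Ccne1 at -0.99 and E2f1 at -0.79) at that level. Together these were 7.5% of the list, below the 8.58% of all tested genes. Cytosolic ribosomal protein genes had small positive differences in 46 of 47 members (median 0.17), and 37 of 43 oxidative phosphorylation genes did (median 0.14), where 57% of all tested genes were positive, with 0 of either at an unadjusted p under 0.05. Without untreated HESKOL replicate 3 these medians were 0.07 and 0.05, against 0.02 for all genes tested then.

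Cell type markers were compared in the same way. Endothelial markers included the sinusoidal receptor gene Lyve1 (0.89, SE 0.24), Gpihbp1 (0.55) and Emcn (0.43), 3 of 20 at an unadjusted p under 0.05 and positive, with summed levels of 79.2 to 94.7 in HESKOL and 60.6 to 86.1 in wild-type livers. Those 3 were 15% of the list, against 8.58% of all tested genes. The scavenger receptor Marco of Kupffer cells was 1.26, while the 20 macrophage markers had a median of 0.02. The carbonic anhydrase genes Car3 (-1.93) and Car1 (-1.43) had negative differences at that level. The adipocyte list had 8 of 10 tested members positive (median 0.20), with 1 positive and 1 negative at that level. The erythroid list had 5 of 10 positive (median -0.04), with 0 positive and 2 negative at that level. In each list that is 20% of the tested members, against 8.58% of all tested genes. Lep and Ucp1 of fat and Rhag of red cells were below background on all arrays.

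Genes chosen for the glucocorticoid response and lipid metabolism ranged from -1.38 (Srebf1) to 1.70 (Igfbp1) over both states, and none of those below passed the threshold. The glucocorticoid receptor Nr3c1 was -0.12 (SE 0.14), tyrosine aminotransferase (Tat) 0.25 (SE 0.20), Pck1 0.13 (SE 0.22), Gadd45b 0.46 (SE 0.35) and Pparg 0.11 (SE 0.35). Fkbp5, a chaperone of the receptor, was 0.20 (SE 0.75) and -0.60 without wild-type dexamethasone replicate 1, and Sult1e1 was -0.03 (SE 0.67). Igfbp1, a secreted binder of insulin-like growth factors, was at 0.71, 2.89 and 4.21 in untreated wild-type and 4.98, 4.86 and 6.00 in untreated HESKOL livers, without overlap. After dexamethasone it was at 8.94, 6.69 and 8.52 in wild-type and 8.58, 9.0 and 8.74 in HESKOL livers, so the genotypes overlapped (both states 1.70, SE 0.60, adjusted p = 0.475). The cell cycle inhibitor Cdkn1a was 0.86 (SE 0.37). Srebf1, which drives lipogenesis, was 0.03 in untreated and -2.79 in treated livers (both states -1.38, SE 0.62; -0.84 without wild-type dexamethasone replicate 1 and -0.40 with slide as a block), and Cidec, a lipid droplet protein, -0.50 and 3.44 (1.47, SE 0.72). Vldlr, a lipoprotein receptor gene, was 1.60 (SE 0.50) and the triglyceride lipase gene Pnpla2 0.79.

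The genotype difference itself differed between treatment states in 3 genes (0.016%; 1242 at an unadjusted p under 0.05, or 6.64%). Phf11d was at 0.17, 0.04 and -0.24 in untreated wild-type, 0.00, 0.00 and -0.35 in untreated HESKOL and 0.15, 0.28 and 0.45 in treated wild-type livers, but at 3.26, 2.98 and 2.82 in treated HESKOL livers. Sesn1, a stress-inducible inhibitor of mTOR complex 1, lay between 1.52 and 2.18 in the other 9 livers and at 4.71, 4.87 and 4.50 in treated HESKOL livers. Il1b, the cytokine interleukin 1 beta, was at -0.62, -1.77 and -1.24 in untreated and -0.26, -1.39 and -0.41 in treated wild-type livers, at -0.23, -0.03 and -0.70 in untreated HESKOL and at -4.15, -3.95 and -5.00 in treated HESKOL livers. In each of the 3 the treated HESKOL livers stood alone. The difference of differences was 2.83 for Phf11d (adjusted p = 0.0192), 2.63 for Sesn1 (adjusted p = 0.0242) and -4.57 for Il1b (adjusted p = 0.0343), and averaged over both states these genes did not pass (1.31, 1.48 and -1.40).

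**Figure D5:**
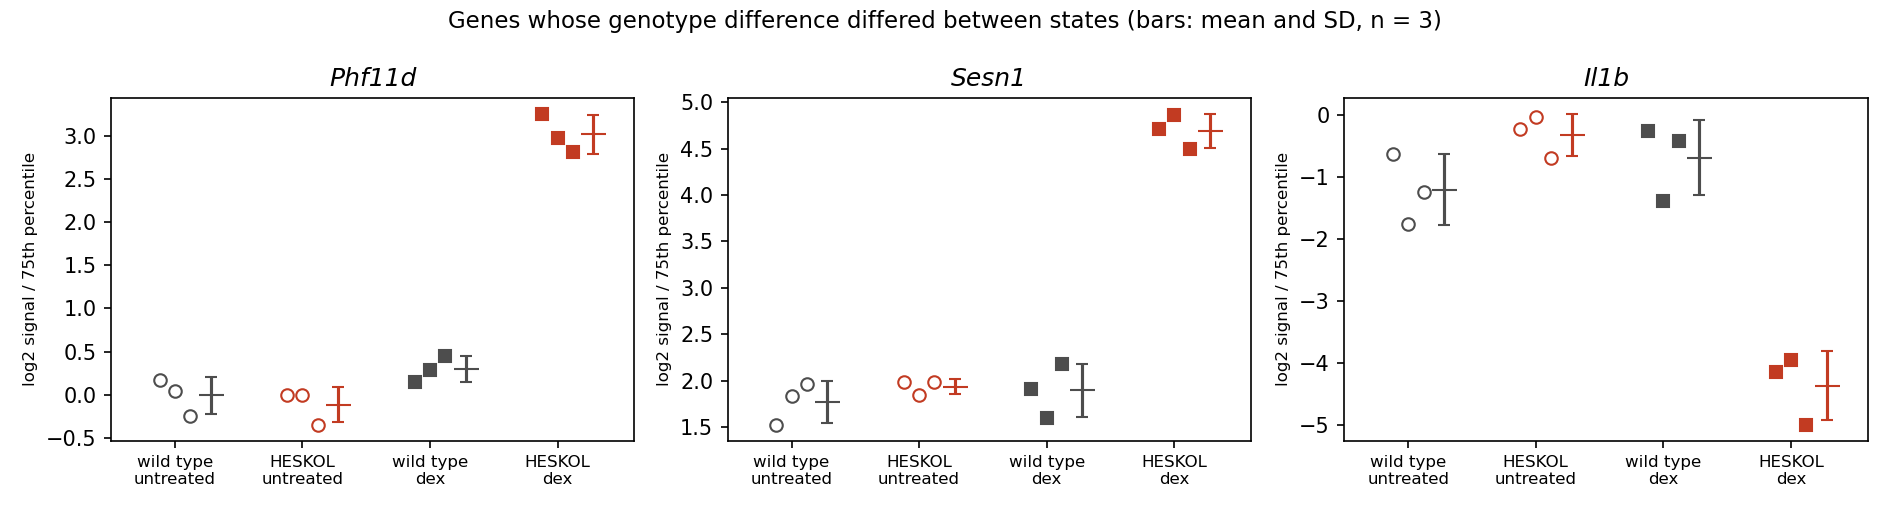
Log2 signal over the 75th percentile of each array for Phf11d, Sesn1 and Il1b in the 4 groups; each point is 1 array and bars give the mean and SD of 3. The treated HESKOL livers stand apart from the other 9 livers in each panel, near 3, 4.7 and -4.4.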

How the data were processed

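Total RNA of 12 livers was measured on one-colour arrays after Cy3 labelling of 500 ng. Per the file headers, spot intensities came from Feature Extraction 9.5.3.1 of Agilent, and probe positions are on mm7 (the submitters' processing notes name version 9.5); the deposited processed signal is a background-subtracted linear intensity, and the deposited series table equalled it (ratio 1). No further normalization is given in the sources used here.

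Each array's 45018 spots include 1639 controls, which were left out. Log2 signals were scaled on each array's 75th percentile; outlier spots were dropped, saturated ones kept. Of 41174 probes, 22951 were named by accession, 9768 by symbol or synonym, 1473 by the file's own name, and 6982 stayed unnamed. The probe with the highest mean stood for its gene. Groups come from sample titles. The series design states 3 mice per group, so replicates are separate animals, and the number of arrays limits the precision.

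The test was limma 3.58.1 (R 4.3.3) on genotype plus treatment, with Benjamini-Hochberg adjustment over all tested features; within-state differences and their difference came from a fit of 4 group means. A fold of a probe above background on no array of a group is a lower bound: the bright group's mean against, per array, the higher of the lowest signal well above background and the probe's own. On simulated arrays of 18691 features, the genotype fit recovered 89 of 100 genes changed by 2 log2 units and 41 of 100 changed by 1, with 10 false calls. The test of the difference between states recovered 35 of 100 and 1 of 100, with 3 false calls.

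The genotype comparison, its genes and 41 gene lists were chosen with earlier results of these data known. Genes named were the 12 of smallest p or largest called difference per direction, 14 fixed genes, up to 4 members with the smallest p per list, and genes called for a difference between states; further members of the 2 sex-pattern lists were named after their values were seen. Promoter windows are from RefSeq. Alternatives covered normalization, background, filters, probe choice, slide, replicate number, brightness, array weights, thresholds and single arrays left out. Results of 2 list members are not reported here.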

Additional observations from a re-analysis of the deposited data

Results flagged for a closer look

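The genotype difference after dexamethasone differed from that in untreated livers, by the interaction test of the fit of 4 group means, in Phf11d by 2.83, in Sesn1 by 2.63 and in Il1b by -4.57 (limma, adjusted p = 0.0192, 0.0242 and 0.0343).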

How the results depend on the processing

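The count of 3 called genes for genotype lay between 0 and 3 over the 12 fits that left out 1 array (0 without wild-type untreated replicate 1, HESKOL untreated replicate 2 and HESKOL dexamethasone replicates 1 and 3; 1 without wild-type dexamethasone replicate 3). The genes called changed as well. Without wild-type dexamethasone replicate 1 the 3 called were all lower, and 1 was among the main 3. Of the 5 called with probes above background on all arrays, 2 were among the main 3. The count was 0 on the unscaled deposited values (1546 at an unadjusted p under 0.05 by limma), after normexp (1012), with slide as a fixed block (1060) and without the treatment term (1159). It was 5 with probes above background on all arrays, 45 with 4 group means, 6 with trend and robust estimation, 7 with array weights, 0 at an adjusted p under 0.01 and 7 under 0.1. With the replicate block it was 0 (1679 at an unadjusted p under 0.05). Deviations of same-numbered livers from their group means had correlations of -0.35 to 0.62 untreated and 0.01 to 0.15 treated. Differently numbered livers had -0.69 to 0.71 untreated and -0.25 to 0.205 treated. Deviations within a group of 3 offset each other, so these values cannot decide whether the numbers mark pairs. The count of 3 for the difference between states was 0 on the deposited values (1681) and with slide as a fixed block (811), 7 with slide as a random block, 2338 with array weights, 30 with brightness, 0 under 0.01, 6 under 0.1, and 0 to 13 leaving out 1 array (0 without wild-type untreated replicate 2, each HESKOL untreated replicate, and HESKOL dexamethasone replicates 2 and 3; 9, 13 and 6 without wild-type dexamethasone replicates 1, 2 and 3). Hes1 stayed negative in every alternative, from -1.27 to -0.66, with an adjusted limma p above 0.05. Its permutation p, where computed, lay between 0.005 and 0.025. Of 91 genes followed over the alternatives 86 kept their sign throughout: Sult1e1 was 0.0075 on deposited values, 0.28 after normexp and 0.011 with brightness, and -0.45 to 0.40 leaving out 1 array; Fkbp5 was -0.57 with slide as a fixed block, -0.54 with array weights and -0.60 to 0.50 leaving out 1 array; Pparg was -0.12 to 0.40 and Pck1 -0.0012 to 0.25 leaving out 1 array; Maml2 was -0.22 after normexp. The causes were not tested. Median scaling moved the median of all tested genes to -0.0037 and normexp to -0.090, from 0.045.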
